A study of Mus musculus with 4 samples.

Results

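The genes of antigen presentation by class I molecules of the major histocompatibility complex (MHC) were followed across deposited peak lists of histone methylation in mouse macrophages. The 10 members were chosen by name: the classical heavy chains H2-K1 and H2-D1, the light chain B2m, the transporter subunits Tap1 and Tap2, the loading factor Tapbp, the immunoproteasome subunits Psmb8 and Psmb9, the peptide-trimming enzyme Erap1 and the regulator Nlrc5, out of 21775 protein-coding genes placed on the genome. Trimethylated lysine 4 of histone H3 (H3K4me3) was read at the ends of these genes and over merged peak regions, and trimethylated lysine 9 (H3K9me3) over the gene bodies. All 10 were found, and because Tap1 and Psmb9 share 1 peak they gave 9 distinct H3K4me3 sites.

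Chromatin immunoprecipitation sequencing had been done on peritoneal macrophages of C57BL/6 mice aged 8 weeks, recruited with thioglycollate broth, cultured until adherent and then exposed for 24 h to lipopolysaccharide (LPS), the bacterial ligand of Toll-like receptor 4, or to phosphate-buffered saline (PBS). The groups were H3K4me3 after LPS, H3K4me3 after PBS, H3K9me3 after LPS and H3K9me3 after PBS, each precipitated with an abcam antibody to the mark, with 1 library each, and no genotype other than the strain is named. The number of mice, and whether cells were pooled, are not given in the sources used here. Thioglycollate-elicited cells are mostly recruited from blood, which limits them as a model of resident macrophages.

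With 1 library per group no test between LPS and PBS was possible, and each ratio compares these libraries, not the treatments. The filtered libraries held 26748289 tags after LPS and 29681491 after PBS for H3K4me3, and 28586946 after LPS and 27727997 after PBS for H3K9me3, a tag being 1 aligned read kept by the peak caller. Listed H3K4me3 peaks held 14.0% of the filtered tags in LPS and 17.8% in PBS. Ratios per filtered tag are not corrected for this difference between the libraries. Intervals are exact 95% intervals that cover counting error only. All 9 macrophage markers examined (among them Adgre1, Csf1r, Cd68 and Cd14) had an H3K4me3 peak at a gene end, in both lists for 8 and in LPS only for Spi1 (1.26% of all genes were listed in LPS only). Their summed level was 84.6 tags per 1000000 filtered tags in LPS and 81.9 in PBS. That order rests on Spi1, which had 503 tags in LPS and none in PBS at the gene end, with 4 PBS peaks within 5 kb. Without it the sum was 65.8 in LPS and 81.9 in PBS, and the median log2 ratio of the 8 markers in both lists was -0.41.

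Markers of other cells were also listed in part. Of 7 T cell genes, Cd3d (57 tags in LPS, 82 in PBS) and Cd4 (216 and 277) were in both lists at a gene end. Cd3e, Cd3g, Cd8a, Cd2 and Lck were at 0 there. The Cd3d peak lay away from its annotated start, which had 0 tags in both libraries. The Cd4 region begins at 124862468, outside the lower-coordinate end of the gene at 124864693. No annotated start of Cd4 was available, so whether this peak lies at the Cd4 promoter was not tested. Most of the T cell sum below comes from Cd4. Lck had 177 tags in LPS and 216 in PBS at an annotated start away from its gene ends. The T cell sum below leaves these Lck tags out. Of 4 B cell genes, Cd79a (256 in LPS, 354 in PBS) and Pax5 (44 and 38) were in both, and Cd79b and Ms4a1 at 0. The Cd79a peak lay past the far end of the gene, and its annotated start had 0 tags in both libraries. Of 6 neutrophil genes, S100a8 (21 tags) and Camp (56) were in LPS only and Mmp8 (19) in PBS only, and S100a9, Ltf and Ly6g were at 0. Of 5 eosinophil and mast cell genes, Kit (201 in LPS, 236 in PBS) was in both, and Siglecf, Prg2, Epx and Cpa3 were at 0. Of 8 mesothelial and fibroblast genes, Wt1 (207 in LPS, 321 in PBS), Col1a1 (140 and 199) and Pdgfrb (188 and 62, a log2 ratio of 1.75) were in both. In that list Upk3b (101 tags), Col1a2 (79), Krt8 (70) and Krt19 (33) were in PBS only, 4 of 8 against 3.15% of all genes, and Msln was at 0. The summed levels in LPS and PBS were 10.2 and 12.1 (T cell), 11.2 and 13.2 (B cell), 2.88 and 0.640 (neutrophil), 7.51 and 7.95 (eosinophil and mast cell) and 20.0 and 29.1 (mesothelial and fibroblast) tags per 1000000. Without Pdgfrb the mesothelial and fibroblast tags summed to 347 in LPS and 803 in PBS. Other cells also carry class I genes, and their part in the results below was not tested. In bulk chromatin, fewer marked cells and less mark per cell cannot be told apart.

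Class I molecules show peptides from inside the cell to CD8+ T cells. The proteasome cuts proteins into peptides, the TAP transporter carries these into the endoplasmic reticulum, trimming enzymes shorten them, and the loading complex places them on heavy chains paired with beta-2 microglobulin. Interferons raise most of these genes together, partly through Nlrc5, which acts at heavy chain promoters. H3K4me3 marks active and poised promoters, and H3K9me3 marks heterochromatin and silenced repeats.

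Of the members, 7 lie on chromosome 17 within a stretch of 1.35 Mb in the mouse MHC. Psmb9, Tap1, Psmb8 and Tap2 follow each other within 34.3 kb, and the ends of Psmb9 and Tap1 are 225 bp apart. B2m (chromosome 2), Nlrc5 (chromosome 8) and Erap1 (chromosome 13) lie elsewhere. The promoter table of RefSeq (GRCm38.p6, the same build as the mm10 of the peak lists) held 8 of the 10 genes, all but Tap2 and Nlrc5. Each of these windows, from 250 bases before to 50 after the annotated start, was overlapped by an H3K4me3 peak of both libraries, at least in part. The promoters below are shown because they are the sequences under sites with high levels per covered kb (H2-K1, H2-D1, Tap1 with Psmb9), under the sites with the lowest ratios (B2m, Erap1), or because H2-K1 and H2-D1 are close copies. The windows of Tap1 and Psmb9 share 275 bases, so that of Tap1 stands for both. Capitals mark the motifs searched.
H2-K1 (chr17:34000298-34000597, minus strand): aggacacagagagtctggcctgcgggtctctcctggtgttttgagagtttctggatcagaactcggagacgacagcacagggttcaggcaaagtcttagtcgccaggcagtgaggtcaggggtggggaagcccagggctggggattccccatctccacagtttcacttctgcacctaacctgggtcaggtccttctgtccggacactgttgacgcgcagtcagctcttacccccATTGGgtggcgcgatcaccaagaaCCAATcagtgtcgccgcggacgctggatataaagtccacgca
H2-D1 (chr17:35262844-35263143, plus strand): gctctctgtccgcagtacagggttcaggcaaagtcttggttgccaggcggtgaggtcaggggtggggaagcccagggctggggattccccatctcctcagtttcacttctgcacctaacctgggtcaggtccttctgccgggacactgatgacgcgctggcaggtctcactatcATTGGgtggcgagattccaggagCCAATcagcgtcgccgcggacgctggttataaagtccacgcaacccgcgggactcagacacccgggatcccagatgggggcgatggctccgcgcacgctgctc
B2m (chr2:122147437-122147736, plus strand): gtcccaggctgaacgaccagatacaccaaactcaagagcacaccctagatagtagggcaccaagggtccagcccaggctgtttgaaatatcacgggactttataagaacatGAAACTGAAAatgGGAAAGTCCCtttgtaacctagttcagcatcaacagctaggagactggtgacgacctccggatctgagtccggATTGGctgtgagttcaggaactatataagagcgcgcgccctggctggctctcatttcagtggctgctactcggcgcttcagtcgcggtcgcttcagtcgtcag
Tap1 (chr17:34187306-34187605, plus strand): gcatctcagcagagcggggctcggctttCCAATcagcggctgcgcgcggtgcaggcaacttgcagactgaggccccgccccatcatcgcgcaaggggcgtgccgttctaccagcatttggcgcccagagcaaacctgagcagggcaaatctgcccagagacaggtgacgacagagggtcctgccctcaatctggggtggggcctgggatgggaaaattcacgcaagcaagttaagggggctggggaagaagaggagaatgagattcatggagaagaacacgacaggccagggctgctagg
Erap1 (chr13:74639603-74639902, plus strand): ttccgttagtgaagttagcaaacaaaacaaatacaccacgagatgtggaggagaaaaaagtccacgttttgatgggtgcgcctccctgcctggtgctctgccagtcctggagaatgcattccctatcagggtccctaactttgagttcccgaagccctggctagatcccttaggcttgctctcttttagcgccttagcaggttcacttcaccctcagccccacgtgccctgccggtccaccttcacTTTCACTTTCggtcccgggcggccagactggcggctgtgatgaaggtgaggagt

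The motifs, searched on both strands, were the interferon-stimulated response element core (GAAA, any 2 bases, GAAA), the gamma-activated site TTCNNNGAA, the Y box ATTGG, the cyclic AMP response element TGACGTCA and an NF-kB form (GGG, any 2 bases, TTTCC). They occurred in 3.44%, 8.30%, 37.4%, 1.79% and 1.63% of 32851 promoter windows of that length. Among the 8 members with a window, the response element core was in B2m and Erap1, the gamma-activated site in Psmb8, and the NF-kB form in B2m. The Y box was in B2m, H2-D1, H2-K1, Psmb9, Tap1 and Tapbp, and the cyclic AMP element was in no member. In B2m the response element core lay at -139 to -130 and the NF-kB form at -126 to -117, counted with the start as 0. The B2m peaks begin at 122147643 in LPS and 122147649 in PBS, so all B2m matches lie just before them. The Y boxes of Tap1 and Psmb9 are the same bases in the stretch their windows share, counted for both genes. Within a window no matches overlapped. A match describes letters in a window and is not a binding site. The patterns are fixed, so variant forms of an element are not counted. The lack of a response element or NF-kB match at H2-K1 and H2-D1 therefore does not show that these promoters lack such elements.

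The H2-K1 and H2-D1 promoters were 88.3% identical over 239 aligned bases, and their longest shared run was 47 bases. The tags were 49 to 50 bases long, and no 49-base stretch of the 8 members' windows recurred in the promoter window of a gene elsewhere. Whether tags with several matches were kept is not given in the sources used here. Beyond these windows, heavy chain tags can be shared with other class I genes, so the H2-K1 and H2-D1 values are less certain than the rest.

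**Figure D1:**
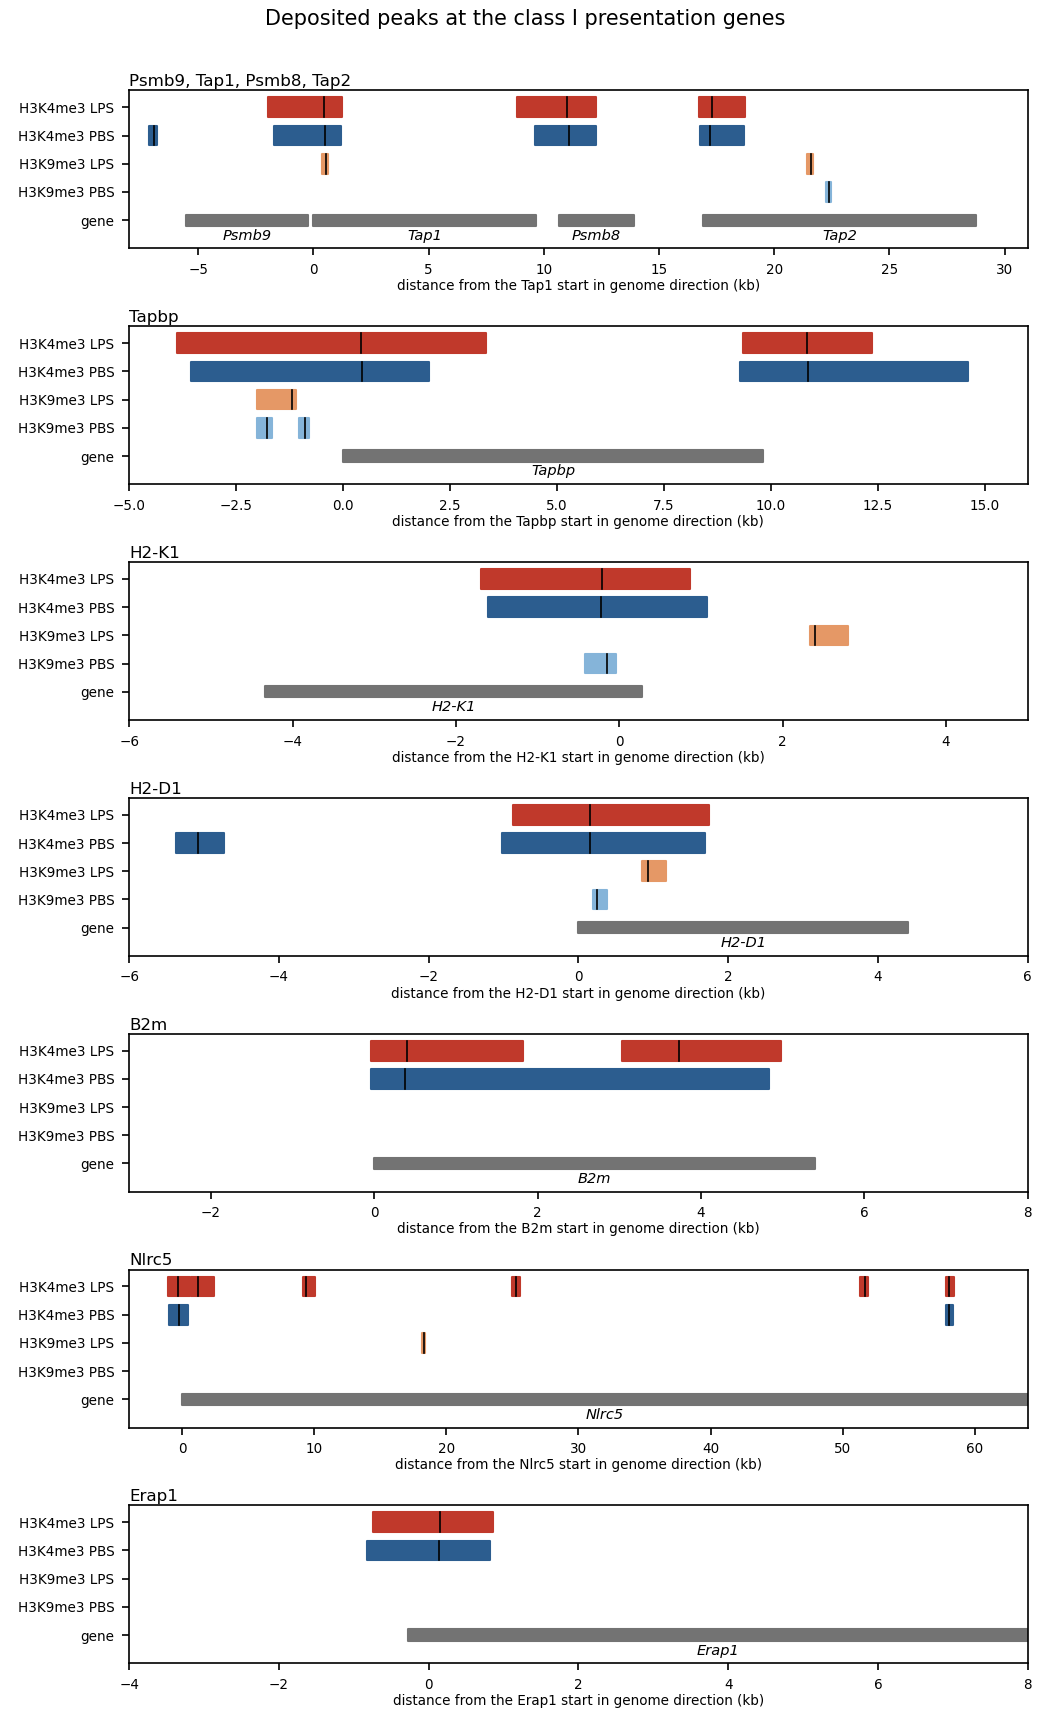
Peaks listed in the 4 libraries at the 10 genes, as bars to scale with a line at each summit, against distance from the named start (for Nlrc5 the lower-coordinate gene end) in kb along the genome. Rows run from H3K4me3 LPS and H3K4me3 PBS to H3K9me3 LPS, H3K9me3 PBS and the gene; the bodies of Nlrc5 and Erap1 run past the right edge. The B2m gene carries 2 LPS peaks under 1 PBS peak of 4.88 kb, and Nlrc5 carries 6 LPS peaks and 2 PBS peaks.

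At the heavy chains, H3K4me3 tag counts were slightly lower in the LPS library. H2-K1 (gene 14972, chromosome 17, 33996012 to 34000619), which encodes the classical heavy chain K, had 471 tags in LPS (2.57 kb) and 551 in PBS (2.69 kb). The log2 ratio of tags per filtered tag was -0.08 (-0.26 to 0.10), an interval that included equality of the libraries. The same interval lay wholly above the median of all gene ends, -0.36. H2-D1 (gene 14964, chromosome 17, 35263094 to 35267497), the classical heavy chain D, had 453 tags in LPS (2.62 kb) and 602 in PBS (2.72 kb), with a ratio of -0.26 (-0.44 to -0.08). The H2-D1 interval included the median of all gene ends but not equality. The summits of the LPS and PBS peaks lay 9 bp apart at H2-K1 and 5 bp apart at H2-D1, inside the gene 156 bp (LPS) and 161 bp (PBS) after the H2-D1 start. A further peak of 70 tags, with its summit at -5078 bp from the H2-D1 start, was in the PBS list only.

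B2m (gene 12010, chromosome 2, 122147687 to 122153082), the light chain of all class I molecules, gave the lowest gene end ratio of the members. Its peak at the start held 170 tags in LPS (1.86 kb) and 481 in PBS (4.88 kb), a log2 ratio of -1.35 (-1.61 to -1.10). The PBS peak ran over nearly the whole gene, whereas the LPS list held a second peak of 159 tags over 1.94 kb after a gap of 1218 bp. Counted together, the LPS peaks held 329 tags against 481 in PBS, a ratio of -0.40 (-0.60 to -0.19) over the merged region of 5.02 kb. In tags per covered kb the gene end ratio was 0.04. The second LPS peak had a score of 72.5, and with peaks of score 100 or more only, the region also came to -1.35. The ratio at B2m thus differed between these ways of counting. The annotated body of Patl2 spans B2m, so the peaks lie within both genes.

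The genes that supply peptides had H3K4me3 peaks of 1.91 to 3.45 kb in both libraries. Psmb9 (gene 16912, chromosome 17, 34182030 to 34187330), a catalytic subunit of the immunoproteasome, and Tap1 (gene 21354, 34187556 to 34197225), one chain of the peptide transporter, shared a peak of 503 tags in LPS (3.21 kb) and 628 in PBS (2.94 kb). The ratio was -0.17 (-0.34 to 0.00), and the summit lay inside Tap1, 445 bp (LPS) and 496 bp (PBS) after its start. Psmb8 (gene 16913, 34198195 to 34201454), the other inducible subunit examined, had 399 tags in LPS (3.45 kb) and 402 in PBS (2.63 kb), a ratio of 0.14 (-0.06 to 0.34) that was -0.25 per covered kb. Both peaks reached back over the end of Tap1. Tap2 (gene 21355, 34204479 to 34216321), the other transporter chain, had 378 tags in LPS (2.02 kb) and 442 in PBS (1.91 kb), a ratio of -0.08 (-0.28 to 0.13). In tags per filtered tag, the intervals of these 3 sites all included equality of the libraries. All 3 intervals lay wholly above the median of all gene ends, -0.36, so the reading depends on the scaling. A weak peak of 25 tags beyond the far end of Psmb9 was in the PBS list only.

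Tapbp (gene 21356, chromosome 17, 33919478 to 33929290), which bridges TAP and the waiting heavy chain, had the most tags of the members, 753 in LPS (7.23 kb) and 747 in PBS (5.58 kb). The ratio was 0.16 (0.01 to 0.31), and -0.21 in tags per covered kb, so its sign turned with the measure. This stretch also covers Zbtb22 and the non-coding Gm19412 and begins beside the end of Daxx, and its tags cannot be divided among these genes. The authors' score, minus 10 times the logarithm of the caller's p-value, was 61.3 for the LPS peak, near the lowest listed score of 50, and 288 for the PBS peak, so a minimum of 100 removes the LPS peak. Erap1 (gene 80898, chromosome 13, 74639573 to 74693205), which trims peptides in the endoplasmic reticulum, had 197 tags in LPS (1.60 kb) and 302 in PBS (1.65 kb). Its ratio of -0.47 (-0.73 to -0.20) was the lowest of the members over merged regions, and it remained below 0 per covered kb (-0.42).

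Nlrc5 (gene 434341, chromosome 8, 94434335 to 94527272), the transactivator of heavy chain genes, had the highest gene end ratio. In LPS 2 peaks of 191 and 125 tags met the window at the lower-coordinate gene end, and in PBS 1 peak of 219 tags. More LPS than PBS peaks at a gene end were found for 3.85% of all gene ends and fewer for 4.24%, and Nlrc5 was the 1 member with a difference. The summed counts of 316 in LPS and 219 in PBS gave a ratio of 0.68 (0.43 to 0.93), but the shared region alone gave -0.05 (-0.33 to 0.24), and per covered kb the gene end came to -0.53. The excess in LPS thus lay in the second peak, 97 bp further into the gene, where the PBS list has no peak above its threshold. That peak had a score of 63.5, and with scores of 100 or more, or a window of 0.5 kb, the gene end also came to -0.05. Along the whole gene 6 peaks were listed in LPS and 2 in PBS. The LPS peaks further inside the gene were weak, with 51, 28, 29 and 27 tags, and the last of them matched a PBS peak of 23 tags. The lncRNA gene 9330175E14Rik overlaps this gene end and both peaks there.

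**Figure D2:**
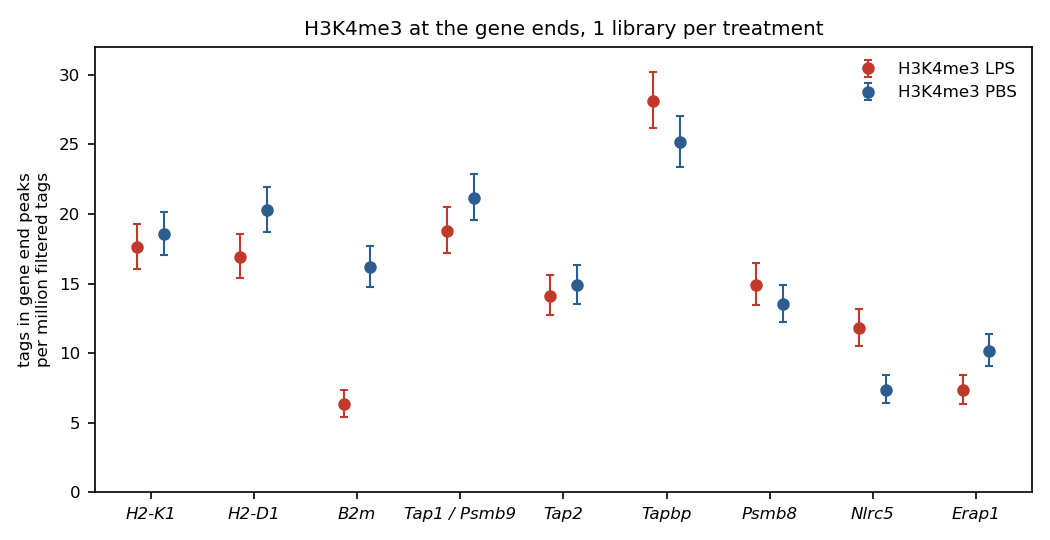
H3K4me3 level at each gene end in tags per 1000000 filtered tags, LPS left and PBS right, with exact Poisson intervals for counting error (1 library each). The widest gap is at B2m, with 6.36 in LPS and 16.2 in PBS, and Tapbp is highest in both, with 28.2 and 25.2.

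Across the 9 distinct sites the median log2 ratio at gene ends was -0.08, against -0.36 for the 13147 gene ends with a peak in both lists. Both medians are descriptions without a test. All 10 members had a peak in both lists, as did 60.4% of all genes. Of the 9 sites, 7 lay above the median of all gene ends, where 50% lie by definition, and the exceptions were B2m and Erap1. Ratios above 0 were found at 3 of 9 (Tapbp, Psmb8 and Nlrc5), against 9.14% of all gene ends. In tags per covered kb the median of the members was -0.21 and that of all gene ends -0.21, with 5 of 9 sites below it. The position of the members above other gene ends in tags was therefore not seen per covered kb.

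A ratio of 2-fold or more was reached by 1 of 9 sites, B2m, which was lower in LPS, as were 3.65% of 12701 gene ends with at least 100 tags. No member was 2-fold higher in LPS, a class with 0.37% of gene ends. When the median gene end was set to 0, B2m came to -0.99 and Nlrc5 to 1.04, so that Nlrc5 passed the 2-fold mark (0.882% of gene ends higher, 1.19% lower) and B2m did not. Both of these genes differ in how many peaks the lists place along them.

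**Figure D3:**
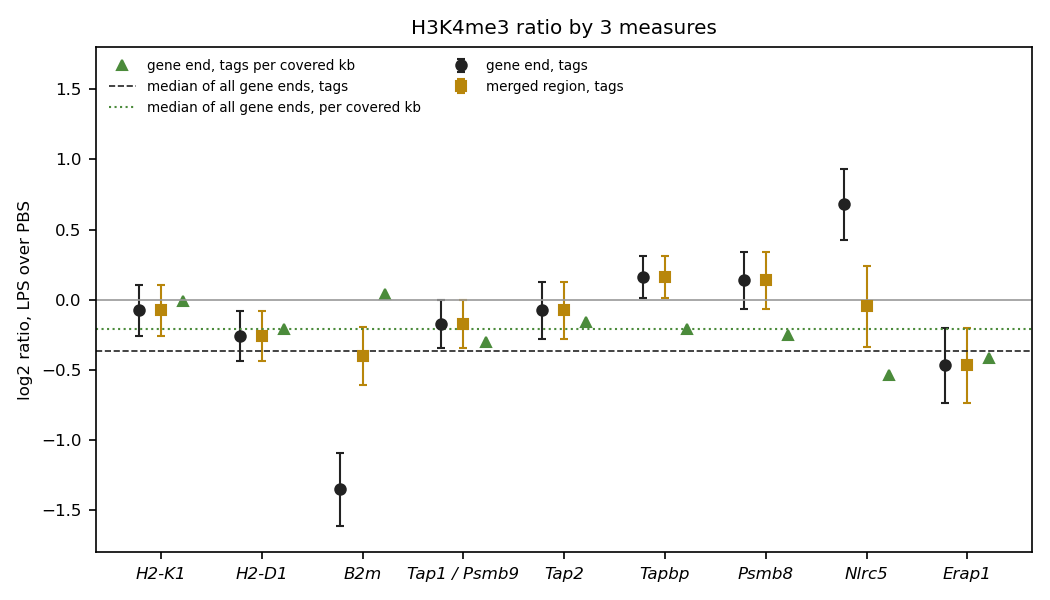
Log2 ratio of LPS over PBS at the 9 sites by gene end tags, merged region tags (both with counting intervals) and gene end tags per covered kb. B2m moves from -1.35 at the gene end to -0.40 over the merged region, Nlrc5 from 0.68 to -0.05, and the other sites have the same value by both tag measures. Dashed and dotted lines give the medians of all gene ends, -0.36 in tags and -0.21 per covered kb.

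Over merged regions, which join peaks of both lists that overlap or touch, the members lay closer together. The 9 shared regions ran from -0.47 (Erap1) to 0.16 (Tapbp), with a median of -0.08 against -0.31 for all 22219 shared regions. Ratios above 0 were found at 2 of 9 (Tapbp and Psmb8), against 20.3% of all shared regions. None reached 2-fold in either direction, against 0.559% of 17893 regions with at least 100 tags that were higher in LPS and 3.19% that were lower. The counting intervals of 5 regions held 0, and those of 4 lay wholly above the median of all regions. Per covered kb, 7 of 9 regions were below the median of all regions (50% by definition), and the median was -0.21 against -0.15.

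Each shared member region was wider than most shared regions. Member regions ran from 1.60 kb at Nlrc5 to 7.23 kb at Tapbp with a median of 2.78 kb, against 1.43 kb for all shared regions. All shared regions include those away from gene ends, and widths were not compared with regions at gene ends alone. A width of 2 kb or more was found in 7 of 9, and in 27.6% of all shared regions. The LPS peaks covered more length than the PBS peaks at 5 sites (Tap1 with Psmb9, Tap2, Tapbp, Psmb8 and Nlrc5), against 33.8% of all shared regions, and less at H2-K1, H2-D1, B2m and Erap1. The LPS and PBS summits lay 5 to 78 bp apart with a median of 38 bp, against a median of 33 bp for all LPS peaks that met a PBS peak.

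Levels per covered kb depend on how wide the caller draws each peak, so they compare genes only roughly. These levels were highest at Tap2, with 6.98 tags per 1000000 in each covered kb in LPS and 7.80 in PBS. H2-K1 had 6.85 in LPS and 6.91 in PBS, H2-D1 had 6.47 and 7.46, and Tap1 with Psmb9 had 5.85 and 7.20. The order of these 3 differed between the libraries, with H2-K1 the highest of them in LPS and the lowest in PBS. These 4 sites stood above at least 79.6% of gene ends in both libraries. The lowest was B2m, with 3.42 in LPS and 3.32 in PBS, against medians of 4.47 and 5.14 for all gene ends.

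**Figure D4:**
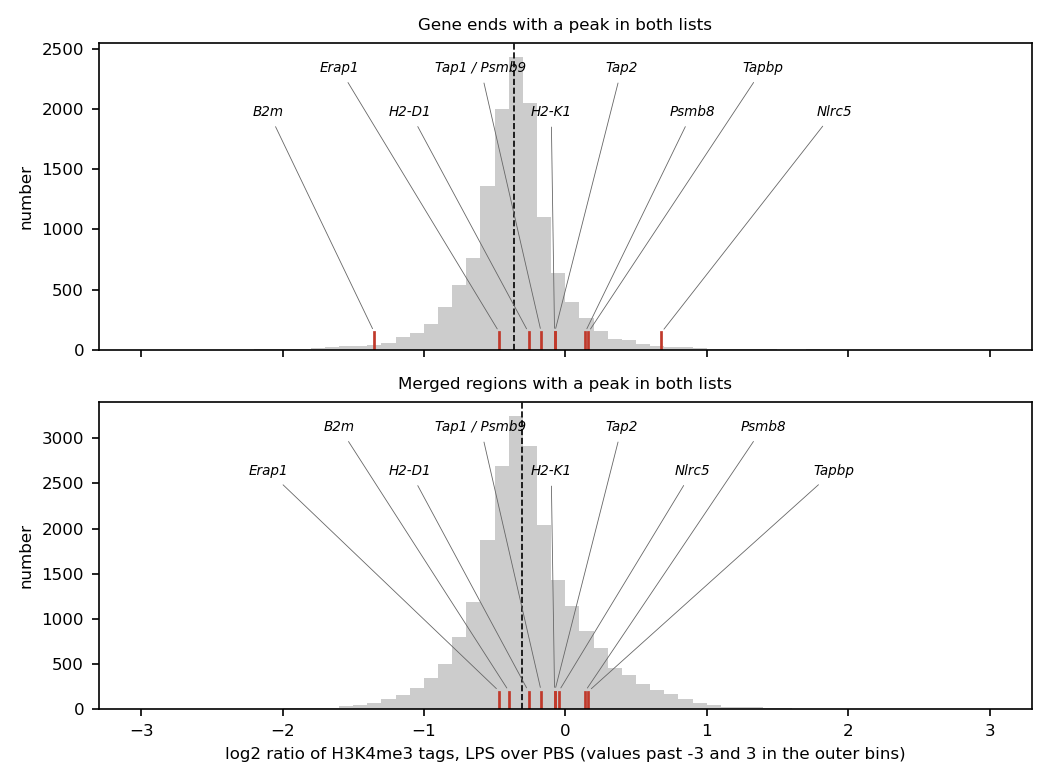
Numbers of gene ends (top) and merged regions (bottom) by log2 ratio of H3K4me3 tags, LPS over PBS, with the 9 sites of the class I genes as red ticks and the median of all as a dashed line. At gene ends B2m and Nlrc5 stand far out on opposite sides, and over merged regions all 9 sites fall between -0.47 and 0.16.

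H3K9me3 peaks on the members held few tags, as did the median peak of each whole H3K9me3 list. A peak lay on the body of 4 of 10 genes in LPS (H2-D1, Tap1, Tap2 and Nlrc5) and of 3 of 10 in PBS (H2-K1, H2-D1 and Tap2), against 26.7% and 24.6% of all genes. B2m, Tapbp, Psmb8, Psmb9 and Erap1 had none in either list. A peak in either list was on 5 of 10 members, against 35.2% of all genes. The members are short, with a median length of 7.53 kb, against 17.2 kb for all genes and 42.4 kb for genes with an H3K9me3 peak, and these shares are not adjusted for length. With the bodies widened by 2.5 kb on each side, 7 members had a peak in LPS and 4 in PBS, against 29.9% and 27.4% of all genes.

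The 7 peaks on the members held 13 to 26 tags with scores of 50.5 to 76.2, near the caller's threshold. The whole lists were similar, with a median of 17 tags and a score of 63.1 in LPS, and 16 tags and 62.1 in PBS. H2-D1 had 26 tags in LPS and 13 in PBS, at different places in the gene, and Tap2 had 18 in LPS and 16 in PBS, also apart. Tap1 had 20 tags and Nlrc5 14 tags in LPS only, and H2-K1 had 24 tags in PBS only. None of the 7 overlapped a peak of the other treatment, whereas 35.8% of all LPS peaks and 32.5% of all PBS peaks did. No H3K9me3 site on these genes was therefore listed in both libraries. The peaks at H2-K1, H2-D1 and Tap1 lay inside the H3K4me3 peak of the same treatment. This made 2 of 4 peaks in LPS and 2 of 3 in PBS, against 33.7% and 22.4% of all H3K9me3 peaks. Beside the genes, a stronger LPS peak of 78 tags (score 133) with PBS peaks of 24 and 16 tags lay before Tapbp, on Zbtb22 and inside the wide H3K4me3 stretch, and an LPS peak of 35 tags 2.40 kb before the H2-K1 start.

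The rest of the pathway was read from 5 further lists. The folding and loading helpers of the endoplasmic reticulum, such as the chaperones Canx and Calr, had peaks in both lists at 10 of 10 genes. Their median ratio was -0.58, with 0 of 10 above the median of all gene ends, but per covered kb it was -0.07 and thus above that of all gene ends (-0.21). Calr, the calreticulin that holds heavy chains for loading, had 191 tags in LPS (1.23 kb) and 439 in PBS (2.98 kb), a ratio of -1.05 (-1.30 to -0.80) that was 0.22 per covered kb. Hspa5, the chaperone BiP, came to -1.14 over its merged region, with 162 tags in LPS (1.03 kb) and 396 in PBS (2.93 kb). Its gene end came to -0.91 in tags and to 0.01 per covered kb.

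The proteasome list (Psmb10, activators, an assembly factor and standard catalytic subunits) had 9 of 9 genes in both lists and a median of -0.24, and none reached 2-fold. Psmb10, the remaining inducible subunit, gave 308 tags (LPS) and 360 (PBS), a ratio of -0.07 (-0.30 to 0.15). Among the standard subunits that the inducible ones replace, Psmb5 had 199 tags in LPS and 218 in PBS (0.02), Psmb6 had 203 and 174 (0.37) and Psmb7 had 88 and 164 (-0.75). These 4 genes are named for their relation to the members, after their values were seen.

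The other class I genes, mostly of the H2-Q and H2-T clusters, had a median of 0.23, with 9 of 11 above the median of all gene ends. Per covered kb it was 0.05, also above that of all gene ends. Of 14 genes found, 11 were in both lists, 1 in PBS only and 2 in neither, and none reached 2-fold. H2-T22, which was chosen after its values were seen, had 504 tags in LPS and 401 in PBS, a ratio of 0.48 (0.29 to 0.67) that was 0.00 per covered kb. H2-T24 had 120 tags in PBS only, where 3.15% of all genes are listed in PBS only. These genes are close copies of each other, and tags can be shared or lost among them.

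Regulators of class I transcription had 14 of 17 genes in both lists and a median of -0.42, and peptide trimming and protein disposal had 10 of 10 and a median of -0.31, with no gene past 2-fold in either. Irf1, the interferon factor that binds response elements of class I genes, was chosen after its values were seen and had 737 tags in LPS (5.46 kb) and 686 in PBS (5.05 kb), a ratio of 0.25 (0.10 to 0.41). Rfx5, Nfyc and Ciita had no peak at an outer gene end. At annotated starts inside the gene, Rfx5 had 177 tags in LPS and 244 in PBS and Nfyc 199 and 310, so the gene end rule misses some promoters.

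**Figure D5:**
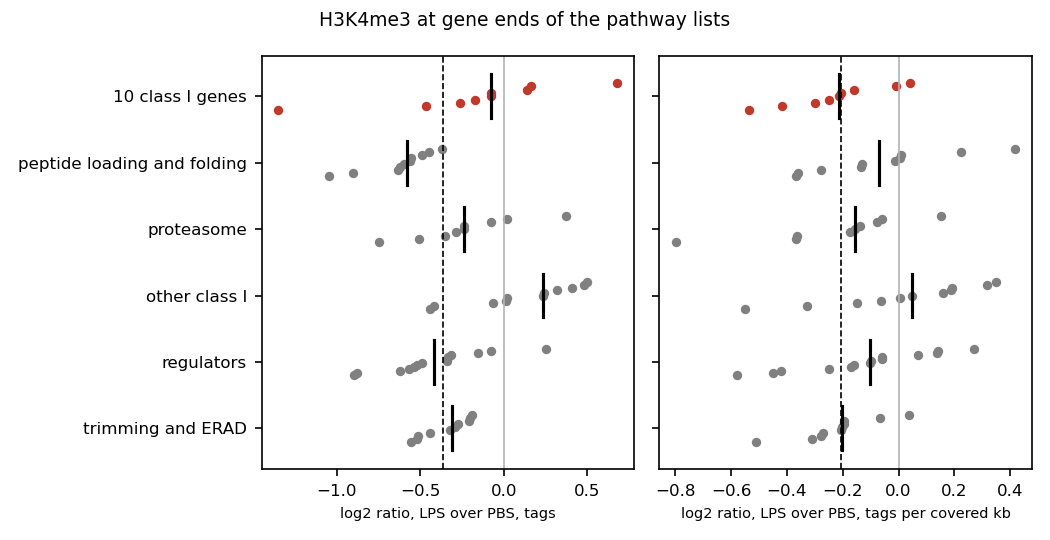
Log2 ratio of H3K4me3 at gene ends, LPS over PBS, for each gene with a peak in both lists (dots) and the median of each list (bars), in tags (left) and tags per covered kb (right). The dashed lines are the medians of all gene ends, -0.36 and -0.21. The folding list moves from -0.58 to -0.07 and the other class I genes from 0.23 to 0.05.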

How the data were processed

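Per the submitters' processing notes, reads were handled with CASAVA 1.4, Bowtie 0.12.8, MACS 1.4.2 and DiffBind on mm10. Peak calling ran on 1 library at a time with no control, per the file headers, at a p threshold of 1e-05, keeping at most 1 tag per position. The authors deposited for each peak its width, its count of tags, a score (minus 10 times log10 of the p-value) and a fold enrichment over the local background. A stretch that is not listed was under that threshold and may still be marked. The deposited fold was not used.

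Gene spans came from RefSeq (GRCm38.p6), and 108 genes with coordinates under 3 Mb outside chromosome Y were left out as scaffold entries. The table gives no strand, so peaks within 1 kb of the gene end with more tags were counted, and shared peaks were counted once in medians. Counts were scaled by the tags left after filtering. Intervals are Clopper-Pearson for ratios and Poisson for counts, computed with scipy 1.17.1. The code was tested on simulated data. One marker gene is not reported here and was left out of its list. Members and lists were chosen with earlier results of these data known. Besides the members, the text names genes that share their peaks, and genes of the pathway lists past 2-fold or in 1 peak list only, with exceptions stated. Markers of other cell types were named whether or not they had a peak. Alternatives changed the window, scaling, score minimum, gene end, merging and overlap.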

Additional observations from a re-analysis of the deposited data

How the results depend on the processing

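The median ratio of the members at gene ends was -0.08, and 0.29 when the median of all gene ends was set to 0. Over merged regions it was -0.08, and 0.23 when the median of all shared regions was set to 0. These scalings shift all sites by 0.36 and 0.31, so the side on which most members fall depends on the scaling. The share of filtered tags in listed H3K4me3 peaks was also lower in LPS (14.0%) than in PBS (17.8%). Per total tag of the headers both medians were 0.03, and with scores of 100 or more they were -0.17 at gene ends, where Tapbp is then read at its far end next to Rgl2 (-0.75), and -0.12 over 8 regions without Tapbp. Without H2-K1 and H2-D1, an alternative chosen after seeing the data, both were -0.08, and with annotated starts, also chosen after, the gene end median was -0.17 over 7 sites. In tags per covered kb the gene end ratio changed sign at B2m, to 0.040, and at Nlrc5 (-0.53), Tapbp (-0.21) and Psmb8 (-0.25). This B2m value is not among the ratios counted below as moved. Members with an H3K9me3 peak numbered 7 in LPS and 4 in PBS when bodies were widened by 2.5 kb, against 29.9% and 27.4% of all genes, and 0 in LPS and 0 in PBS at scores of 100 or more. With widened bodies, 1 LPS peak counted for both Tap1 and Psmb9. Of the single ratios under all alternatives, 67 at gene ends and 42 over regions stayed within the counting interval of the reported value, and 18 and 15 moved beyond it. The ratios that stayed include 8 at gene ends and 8 over regions from leaving out H2-K1 and H2-D1, which cannot change another gene's ratio. Tap1 and Psmb9 were counted separately here although they share 1 peak, so these counts overstate stability. No paired analysis was possible because each group held 1 library. The H3K9me3 peaks on the members held 13 to 26 tags, so counting error on them is wide.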

Other observations

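The neighbours of the class I genes within 10 kb were also read. Rgl2, which begins just past the far end of Tapbp and encodes an exchange factor of Ral GTPases, had 518 tags in LPS (3.02 kb) and 969 in PBS (5.32 kb), a log2 ratio of -0.75 (-0.91 to -0.60) that was 0.06 per covered kb. The other Tapbp neighbour with a site of its own, the prefoldin gene Pfdn6, had 412 tags in LPS and 563 in PBS (-0.30). Cpne2, beyond the far end of Nlrc5, had 428 tags in LPS and 556 in PBS (-0.23). Cast, the calpain inhibitor gene that overlaps the end of Erap1, had 251 tags in LPS and 375 in PBS (-0.43), and Ddx39b, next to H2-D1, had 465 in LPS and 616 in PBS (-0.26). Daxx and Zbtb22 share the wide stretch at Tapbp. These genes were chosen by position, and their values have no replicate check.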
